A study of Mus musculus with 8 samples.

Results

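Mouse cells hold their cholesterol within narrow limits through a group of genes that sense sterols, move them inside the cell and send them out. Of these, 9 genes of the 24460 in the deposited counts are described here. They were chosen by name as known members of that system, at a time when earlier results of these data were known. They are Srebf1, Srebf2, Scap, Insig1 and Insig2, which control the sterol response, Stard4 and Npc1, which carry cholesterol within the cell, and Abca1 and Abcg1, which export it. All 9 had enough counts to be among the 14296 genes tested.

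The cells were subconfluent wild-type mouse embryonic fibroblasts (MEFs), grown with serum, and the compound was RHPS4, a ligand of G-quadruplexes (G4), the folds that runs of guanine form in nucleic acids. RNA-Seq was performed on 3 libraries from cells given no RHPS4 (0 µM), 3 libraries from cells given 2 µM and 2 libraries from cells given 10 µM. All groups shared the same medium and carried no other genetic change that the labels name. The labels do not tie an exposure time, a passage or a culture to each library, so that p-values measure the spread between these libraries, which may be technical.

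Cells sense cholesterol in the membrane of the endoplasmic reticulum. When sterols are scarce, the escort protein SCAP carries the SREBP transcription factors to the Golgi, where proteases release them, and they then switch on genes for cholesterol synthesis, fatty acid synthesis and sterol uptake. When sterols are plentiful, INSIG proteins hold SCAP and SREBP back. Oxysterols that build up at the same time activate the liver X receptors (LXRs), which switch on Srebf1 and the exporters Abca1 and Abcg1.

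The total counts per library ran from 10455965 to 26688121, and levels are given in CPM, counts scaled to library size by edgeR's TMM method. Before that scaling a count of 3 equals 0.287 CPM at the lowest total and 0.112 CPM at the highest. Such floors cover counting error only. Transcripts of mitochondrial DNA took 13.2 to 14.4% of the counts at 0 µM, 7.40 to 8.26% at 2 µM and 5.33 to 6.32% at 10 µM. Markers of fibroblasts summed to 14090 to 14537 CPM at 0 µM, 12846 to 13060 CPM at 2 µM and 12491 to 12808 CPM at 10 µM, with Vim as the most abundant. The summed levels of macrophage, adipocyte, endothelial, epithelial and muscle markers stayed between 3.42 and 27.6 CPM in every library. In such bulk samples fewer cells of a type and less RNA per cell cannot be told apart.

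Insig1 was the one member called as changed. It was lower at 10 µM than at either other dose, whereas 0 and 2 µM overlapped. A gene was called changed at an adjusted p under 0.01 (edgeR's quasi-likelihood test with Benjamini-Hochberg adjustment over all genes tested) and a fold change over 1.5. At 2 µM against 0 µM, 0 of the 9 members were called by edgeR, which called 0.497% of all genes tested, and DESeq2 called 0 members as well. An unadjusted p under 0.05 by edgeR was found for 3 members and for 3046 of the 14296 genes tested. At 10 µM against 0 µM, 1 member was called, Insig1, where 3.09% of all genes were called and 1.14% were called lower. At 10 µM against 2 µM, 1 member was called, again Insig1, where 5.51% of all genes were called and 1.59% were called lower.

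The members did not move in one direction. Against 0 µM, 6 of the 9 had a log2 fold change below 0 at 2 µM, and 6 at 10 µM. These were not the same genes: Scap, Insig1 and Abcg1 were above 0 at 2 µM, and Insig2, Npc1 and Abcg1 at 10 µM. Of the 14296 genes tested, 7410 and 6847 were below 0 at these doses. The members' median log2 fold change was −0.29 at 2 µM and −0.34 at 10 µM against 0 µM, beside −0.01 and 0.02 over all genes tested. Both comparisons share the 0 µM libraries. At 2 µM, 3 members had all exposed libraries below all unexposed ones and 0 had them above, where 25.7% of all genes did not overlap in one direction or the other. At 10 µM, 5 members lay wholly below and 1 wholly above, where 42.9% of all genes did not overlap. Between 10 and 2 µM, 4 members lay wholly above and 4 wholly below, where 51.8% of all genes did not overlap. With so few libraries per group, a lack of overlap was thus common across the genome, and the members' shares are to be read against that.

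**Figure D1:**
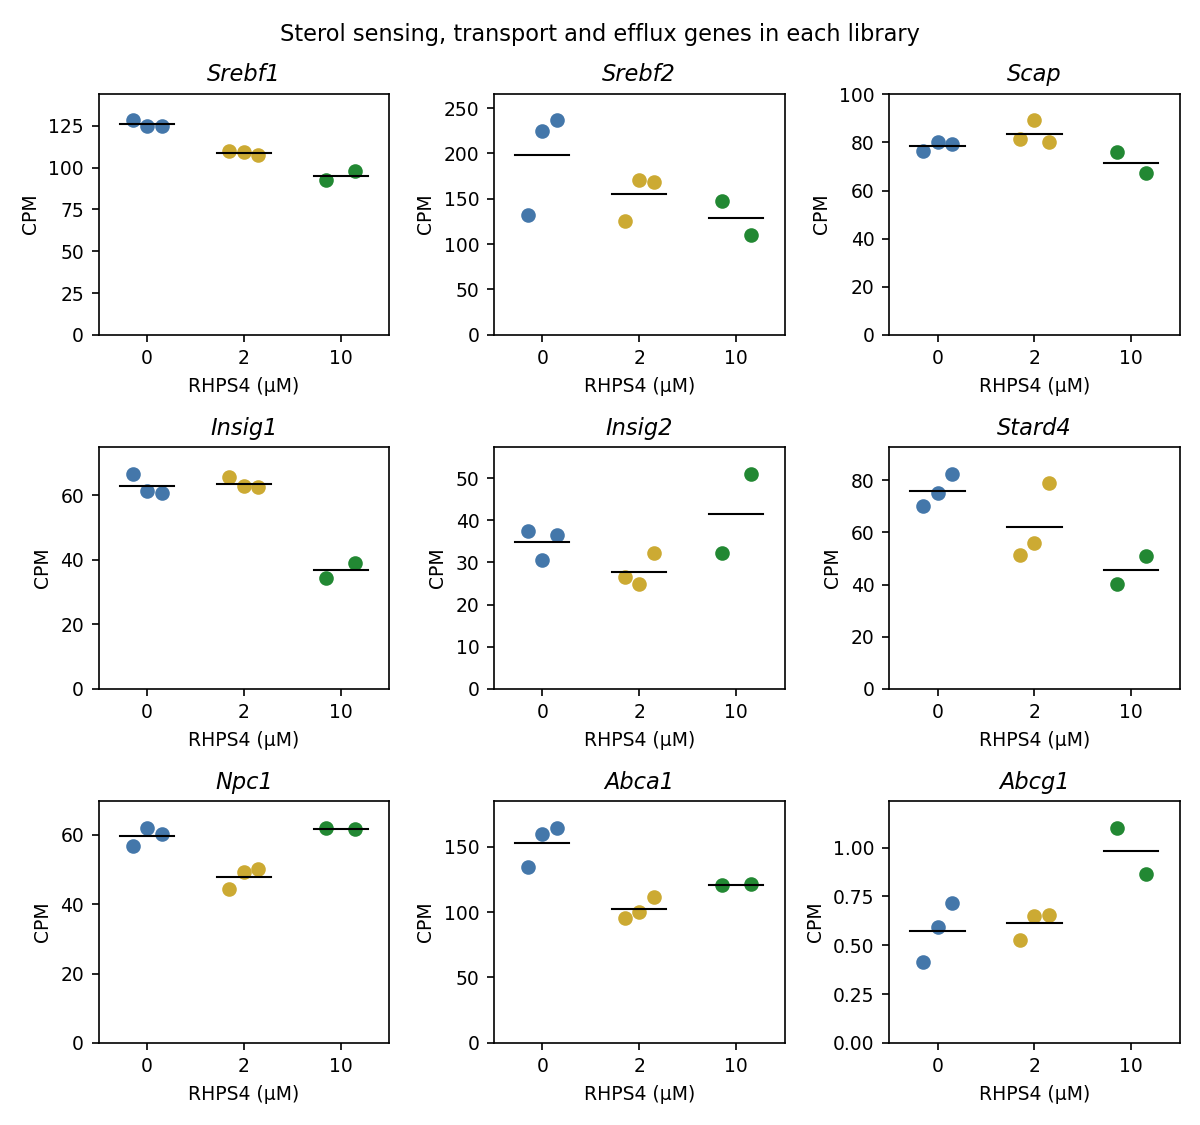
Level of each of the 9 genes in each library, in TMM-scaled CPM on axes that start at 0, by RHPS4 dose. Points are libraries (3, 3 and 2) and the horizontal line is their mean. Insig1 stood at 60.6 to 66.4 CPM at 0 µM and at 34.4 and 39.0 CPM at 10 µM, and Srebf2 was widely spread at 0 µM, from 132 to 237 CPM.

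**Figure D2:**
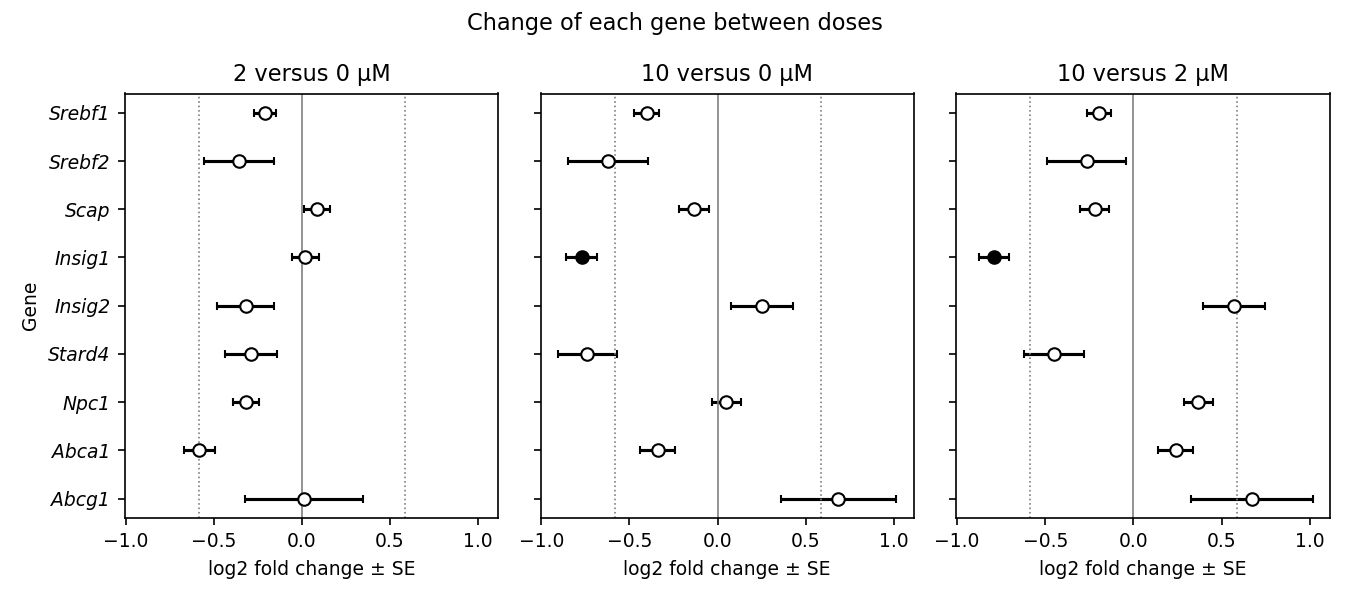
Log2 fold change of each gene with its standard error, for 2 against 0 µM, 10 against 0 µM and 10 against 2 µM. Filled points passed both thresholds, and dotted lines mark a fold change of 1.5. Only Insig1 is filled, at −0.77 and −0.79 in the comparisons with 10 µM.

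To set the members beside each other, the CPM of each gene was divided by the length of its annotated exons in kilobases. That length merges the exons of all annotated transcripts of a gene, so the order of the genes depends on the annotation. At 0 µM, Srebf2 had the highest mean at 27.5 ± 7.99 CPM per kb (SD, n = 3), followed by Srebf1 at 22.4 ± 0.363 and Insig1 at 20.3 ± 1.04. Srebf2 ran from 18.4 to 32.9 CPM per kb and overlapped both Srebf1 and Insig1, so that it could not be placed above either. Abca1 (14.7 ± 1.53 CPM per kb) and Stard4 (13.6 ± 1.11) came next and overlapped each other. Scap (10.6 ± 0.247) and Insig2 (10.1 ± 1.07) overlapped as well. Npc1 stood at 5.27 ± 0.231 CPM per kb. Abcg1 was close to the limit of detection at 0.0788 ± 0.0206 CPM per kb. These MEFs thus held far more RNA of the exporter Abca1 than of its relative Abcg1.

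The genes for the transcription factors themselves come first. Srebf1 encodes SREBP-1, which mainly drives fatty acid synthesis, and lies at chr11:60199089-60222581 in GRCm38. It stood at 128, 125 and 125 CPM at 0 µM, at 110, 109 and 108 CPM at 2 µM and at 92.6 and 97.8 CPM at 10 µM. The 3 groups did not overlap, with the untreated libraries highest and the 10 µM libraries lowest. The log2 fold change was −0.21 (SE 0.0620, adjusted p = 0.0854) at 2 µM and −0.40 (SE 0.0700, adjusted p = 0.00380) at 10 µM by edgeR's quasi-likelihood test. At 10 µM the fold of 1.32 was under the minimum of 1.5, so Srebf1 was not called, and 5.23% of all genes passed on the adjusted p alone. Between 10 and 2 µM the change was −0.20 (SE 0.0700, adjusted p = 0.0655). Scaling to total counts alone, without TMM, lifted the median of all genes at 10 µM from 0.02 to 0.23 and moved Srebf1 at that dose to −0.19 (adjusted p = 0.0624).

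Srebf2 encodes SREBP-2, the main activator of cholesterol synthesis, and lies at chr15:82147181-82205379. It stood at 132, 225 and 237 CPM at 0 µM, at 126, 171 and 168 CPM at 2 µM and at 148 and 110 CPM at 10 µM. All 3 groups overlapped one another, and the first 0 µM library lay below 3 of the 5 exposed ones. Within each group the lowest Srebf2 value was in the library with the fewest counts. What part depth played was not tested. Its log2 fold change was −0.36 (SE 0.199, adjusted p = 0.325) at 2 µM and −0.62 (SE 0.226, adjusted p = 0.0917) at 10 µM by edgeR, and −0.27 between 10 and 2 µM (adjusted p = 0.429). Without the first 0 µM library the change at 10 µM was −0.86 with an adjusted p of 0.00280, which would be called.

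An intron of Srebf2 is known to hold the microRNA gene Mir33, whose product represses Abca1 and so ties the factor for synthesis to the gene for efflux. It is shown because it is the one sequence that links both arms of the system within a single locus, with its seed (bases 2 to 8) in capitals, from RefSeq for GRCm38.p6 at chr15:82198127-82198147 on the plus strand.
miR-33-5p: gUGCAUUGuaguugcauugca
Libraries of this kind do not measure mature miRNAs, and the Mir33 gene itself had 0 or 1 count in each library, at or under the floor of 3 counts, so that no fold is given for it.

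Scap, the sterol sensor that escorts SREBPs, was nearly level. It stood at 76.6, 80.1 and 79.2 CPM at 0 µM, at 81.4, 89.2 and 80.1 CPM at 2 µM and at 76.0 and 67.3 CPM at 10 µM. Both 10 µM libraries lay below all others, by little. The log2 fold change was 0.09 (SE 0.0743, adjusted p = 0.542) at 2 µM and −0.13 (SE 0.0833, adjusted p = 0.311) at 10 µM by edgeR, and with scaling to total counts alone the latter was 0.08. Mbtps1 and Mbtps2, the Golgi proteases that cut SREBPs free, were not called either. Mbtps1 ran from 163 to 225 CPM over the 8 libraries, with a change of −0.13 (adjusted p = 0.557) at 10 µM. Mbtps2 ran from 32.4 to 53.0 CPM, with a change of −0.01 (adjusted p = 0.980).

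Insig1 and Insig2 encode the proteins that retain SCAP. Insig1 is itself an SREBP target, so that its RNA is often read as a gauge of SREBP activity, whereas Insig2 is known as the less sterol-responsive of the pair. Insig1 lies at chr5:28071363-28078662. It stood at 66.4, 61.2 and 60.6 CPM at 0 µM, at 65.5, 62.7 and 62.4 CPM at 2 µM and at 34.4 and 39.0 CPM at 10 µM. The 0 and 2 µM libraries were interleaved, and both 10 µM libraries lay far below them. Its log2 fold change was 0.02 (SE 0.0744, adjusted p = 0.905) at 2 µM, −0.77 (SE 0.0863, adjusted p = 0.000226) at 10 µM and −0.79 (SE 0.0867, adjusted p = 0.000146) between 10 and 2 µM, by edgeR's quasi-likelihood test. With any 1 library left out, the change at 10 µM stayed between −0.89 and −0.71 and was called each time. With scaling to total counts alone it was −0.55 with an adjusted p of 0.00107 and fell under the minimum fold.

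Insig2 lies at chr1:121304353-121332589. It stood at 37.6, 30.7 and 36.6 CPM at 0 µM, at 26.4, 24.8 and 32.2 CPM at 2 µM and at 32.2 and 50.9 CPM at 10 µM. The second 10 µM library was the highest of all, and the first lay within the range of the untreated ones. The log2 fold change was −0.32 (SE 0.162, adjusted p = 0.281) at 2 µM, 0.25 (SE 0.175, adjusted p = 0.373) at 10 µM and 0.57 (SE 0.178, adjusted p = 0.0390) between 10 and 2 µM by edgeR. Without the first 10 µM library the last of these was 0.83 with an adjusted p of 0.00817, which would be called, and without the second 10 µM library the change against 0 µM turned to −0.14.

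The stretch upstream of Insig1 is shown as that of the called member, and the stretch upstream of Abca1 as that of the exporter. Different motifs are marked in each, so the capitals alone do not compare them. Both are from RefSeq for GRCm38.p6. Insig1 is given from −220 to −91 relative to the start site, at chr5:28071192-28071321 on the plus strand, and its capitals mark first a CCAAT box, read here on the other strand as ATTGG, and then an E-box, CACGTG. Abca1 is given from −150 to −51, at chr4:53159946-53160045 on the minus strand, and its capitals mark in turn an E-box, a G4 motif and a DR4 element, the paired AGGTCA half-sites that LXRs bind, matched with 3 mismatches.
Insig1: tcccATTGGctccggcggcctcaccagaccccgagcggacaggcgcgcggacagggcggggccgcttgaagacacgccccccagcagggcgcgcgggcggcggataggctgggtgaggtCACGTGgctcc
Abca1: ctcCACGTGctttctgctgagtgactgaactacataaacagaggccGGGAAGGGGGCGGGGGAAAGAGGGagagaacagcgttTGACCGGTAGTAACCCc
E-boxes bind SREBPs among other factors, CCAAT boxes bind NF-Y, a common partner of SREBP, and G4 motifs are runs of G that can fold into the structures RHPS4 binds.

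Promoter windows of 250 bases before to 50 bases after the start site were matched for 6 of the 9 members, namely Srebf1, Srebf2, Scap, Insig1, Insig2 and Abca1. Both strands were searched, and a gene with several start sites counted as holding a motif where any of its windows did. CACGTG was in 3 of the 6 (Scap, Insig1 and Abca1), against 8.09% of the 26994 genes with a window. CCAAT was in 4 (Srebf1, Srebf2, Insig1 and Insig2), against 41.0%. A G4 motif, which is 4 runs of at least 3 G with loops of 1 to 7 bases, was in 2 (Srebf1 and Abca1), against 20.4%. The SREBP site TCACNCCAC was in 0 of the 6, against 1.44%. DR4 with up to 2 mismatches was in 0, against 3.47%, and with up to 3 mismatches, a limit chosen after the data were seen, in 4, against 24.5%. In Insig1 the loose DR4 match, at −115 to −100, overlaps the E-box by 2 bases and is not marked in the stretch shown. These are matches of letters and not sites shown to be bound.

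Within a library, the ratio of 2 genes does not depend on how libraries are scaled. The log2 ratio of Insig1 to Insig2 counts was 0.82, 1.00 and 0.73 without RHPS4, 1.31, 1.34 and 0.95 at 2 µM and 0.10 and −0.39 in the 10 µM libraries. Every 10 µM library lay below every other library, so that the balance between both retention proteins' RNAs moved towards Insig2 at 10 µM. This ratio holds the same Insig1 counts as the called change of Insig1 and is not a separate result. Insig2 itself was not called at 10 µM against 0 µM. The ratio of Srebf1 to Srebf2 averaged −0.60 ± 0.490 (SD, n = 3), −0.49 ± 0.258 (SD, n = 3) and −0.42 ± 0.361 (SD, n = 2), and its groups overlapped.

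Of the carriers, Stard4 encodes a small cytosolic protein that shuttles cholesterol between membranes and is an SREBP-2 target. It stood at 70.0, 75.1 and 82.3 CPM at 0 µM, at 51.2, 55.8 and 79.0 CPM at 2 µM and at 40.2 and 51.0 CPM at 10 µM. Both 10 µM libraries lay below all others, and the third 2 µM library lay among the untreated ones. Its log2 fold change was −0.29 (SE 0.148, adjusted p = 0.290) at 2 µM, −0.74 (SE 0.170, adjusted p = 0.0157) at 10 µM and −0.45 (SE 0.170, adjusted p = 0.0774) between 10 and 2 µM by edgeR, so Stard4 was not called. The change at 10 µM was called with DESeq2 (−0.77, adjusted p = 0.000103), without the filter on low counts (−0.78, adjusted p = 0.00309) and with only the 2 groups compared (−0.74, adjusted p = 0.00870). It was also called without the first 0 µM library (−0.81, adjusted p = 0.00848) and without the third 2 µM library (−0.76, adjusted p = 0.00294).

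Npc1 encodes the lysosomal membrane protein that lets LDL-derived cholesterol leave the lysosome. It stood at 56.8, 61.9 and 60.2 CPM at 0 µM, at 44.2, 49.2 and 50.2 CPM at 2 µM and at 61.8 CPM in both 10 µM libraries. It was thus lowest in the 2 µM libraries, all of which lay below all others. The log2 fold change was −0.32 (SE 0.0742, adjusted p = 0.0396) at 2 µM, 0.05 (SE 0.0817, adjusted p = 0.729) at 10 µM and 0.37 (SE 0.0823, adjusted p = 0.00888) between 10 and 2 µM by edgeR. The last has a fold of 1.29 and was not called, and 10.8% of all genes passed on the adjusted p alone in that comparison. Npc2, which hands cholesterol to NPC1 inside the lysosome, stood at 226, 159 and 179 CPM at 0 µM, 169, 154 and 174 CPM at 2 µM and 182 and 253 CPM at 10 µM, with changes of −0.18 (adjusted p = 0.487) at 2 µM and 0.21 (adjusted p = 0.389) at 10 µM.

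On the side of efflux, Abca1 encodes the transporter that loads cholesterol onto apolipoprotein A-I, and lies at chr4:53030787-53159895. It stood at 135, 160 and 164 CPM at 0 µM, at 95.4, 100.3 and 111 CPM at 2 µM and at 121 CPM in both 10 µM libraries. The groups did not overlap, with the lowest level at 2 µM and the 10 µM libraries between. At 2 µM its log2 fold change was −0.58 (SE 0.0887, adjusted p = 0.00670) by edgeR. That is a fold of 1.496, just under the minimum of 1.5, so Abca1 was not called, and 0.748% of all genes passed on the adjusted p alone. Without the first 0 µM library it was −0.65 (adjusted p = 0.00108) and would be called. Over all libraries left out in turn the adjusted p ran from 0.00108 to 0.0608, and DESeq2 gave −0.58 with 9.11e-06. At 10 µM the change was −0.34 (SE 0.0992, adjusted p = 0.0418) against 0 µM and 0.24 (SE 0.0988, adjusted p = 0.102) against 2 µM. Macrophages express Abca1 strongly, and the 12 macrophage markers, of which none was at 0 in all libraries, summed to 26.2 to 27.6 CPM at 0 µM, 20.6 to 25.6 CPM at 2 µM and 19.3 to 21.2 CPM at 10 µM. Their most abundant member was Cd14, and the defining marker Adgre1 had 3 to 23 counts per library. Their part in the Abca1 levels was not tested.

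Abcg1, which passes cholesterol on to HDL and lies at chr17:31057675-31117988, was barely expressed. It had 4, 12 and 18 counts at 0 µM, 6, 8 and 11 counts at 2 µM and 18 and 12 counts at 10 µM, which came to between 0.415 and 1.10 CPM. Both 10 µM libraries had the highest CPM. Its log2 fold change was 0.01 (SE 0.336, adjusted p = 0.9995) at 2 µM and 0.68 (SE 0.327, adjusted p = 0.194) at 10 µM by edgeR, so Abcg1 was not called. The receptors that act on both exporters were likewise not called. Nr1h2, which encodes LXRβ, ran from 22.7 to 30.7 CPM over the 8 libraries, with changes of −0.21 (adjusted p = 0.234) at 2 µM and −0.15 (adjusted p = 0.396) at 10 µM. Nr1h3, which encodes LXRα, had 9 to 31 counts per library, with changes of −0.40 (adjusted p = 0.520) and −0.16 (adjusted p = 0.804).

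Efflux can be set against the lysosomal carrier in the same way as the INSIG pair. In counts, the log2 ratio of Abca1 to Npc1 was 1.24, 1.37 and 1.45 without RHPS4, 1.11, 1.03 and 1.15 at 2 µM and 0.96 and 0.97 in the 10 µM libraries. Here the groups fell in the order of the dose.

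Genes that SREBPs switch on were counted in 2 lists, one for cholesterol synthesis and one for fatty acid metabolism. Of 20 genes of cholesterol synthesis, 8 were called lower and 0 higher at 10 µM against 0 µM, and 6 lower and 0 higher against 2 µM. Of all genes tested, 1.14% and 1.59% were called lower in these comparisons. All 20 had a log2 fold change below 0 in both comparisons, with a median of −0.59 against 0 µM. Of the 14296 genes tested, 6847 and 6698 had one below 0. DESeq2 called 10 of the 20 at 10 µM against 0 µM. Hsd17b7, a sterol ketone reductase, fell from 46.5 ± 1.57 CPM (SD, n = 3) to 25.5 ± 0.201 CPM (SD, n = 2), a change of −0.86 (SE 0.0831, adjusted p = 6.92e-05). Cyp51, the lanosterol demethylase, fell by 0.80 on the log2 scale, and Idi1, the isopentenyl diphosphate isomerase, by 0.76. Hmgcs1, the HMG-CoA synthase, fell from 285 ± 33.3 to 167 ± 11.6 CPM (−0.78, adjusted p = 0.000704). At 2 µM edgeR and DESeq2 called 0 of the 20, and the median was −0.05. Of the 20, 3 had an unadjusted p under 0.05, as did 3046 of the 14296 genes tested. With scaling to total counts alone 2 of the 20 were called at 10 µM. In their promoters, CCAAT was in 14 of the 15 with a window and TCACNCCAC in 1, that of Hmgcs1.

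Of 14 SREBP-1 targets in fatty acid metabolism, 4 were called lower and 1 higher at 10 µM, with a median of −0.38. Of all genes tested, 1.14% were called lower and 1.95% higher. Fasn, the fatty acid synthase, fell from 881 ± 157 CPM (SD, n = 3) to 502 ± 69.9 CPM (SD, n = 2), a change of −0.81 (SE 0.148, adjusted p = 0.00489). Elovl6, which elongates its product, fell by 0.79, and the desaturase genes Scd2 and Fads2 each fell by 0.67 on the log2 scale. Mid1ip1, which aids acetyl-CoA carboxylase, rose by 0.78. Against 2 µM, Fasn and Elovl6 fell and Acss2, which makes acetyl-CoA from acetate, rose by 0.62. Of all genes tested, 1.59% were called lower and 3.92% higher in that comparison. At 2 µM, where 0.497% of all genes were called, 1 gene of the 14 was called lower, Lpin1, a phosphatidate phosphatase, with a change of −0.60 (SE 0.0901, adjusted p = 0.00582). That call was lost when the second or the third 0 µM library or any 1 of the 2 µM libraries was left out, with 0 of the 14 called each time.

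The remaining lists cover SREBP processing, uptake and transport, LXR targets, and esterification and oxysterols, to be read against the 3.09% of all genes called at 10 µM. Of 11 genes of SREBP processing other than the members, 1 was called at 10 µM, Paqr3, which tethers SCAP and SREBP to the Golgi. It rose from 4.97 ± 0.473 to 13.3 ± 0.796 CPM, a change of 1.40 (SE 0.125, adjusted p = 4.18e-05). Of 20 genes of sterol uptake and transport, 2 were called higher and 1 lower at 10 µM. Of the 20, 10 had an unadjusted p under 0.05, as did 4205 of the 14296 genes tested. Vldlr, the VLDL receptor, rose from 24.2 ± 3.76 to 111 ± 7.60 CPM, a change of 2.18 (SE 0.110, adjusted p = 7.82e-07). Stard5, a sterol carrier of the same protein family as Stard4, rose by 1.34 (SE 0.151, adjusted p = 0.000237). Lipa, the lysosomal lipase that frees cholesterol from LDL esters, was called against 2 µM alone, where it rose by 0.62 (SE 0.0756, adjusted p = 0.000323).

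Of 14 tested LXR receptors and targets, with Abca1, Abcg1 and Srebf1 kept out of the list, 1 was called at 10 µM. It was Pltp, the phospholipid transfer protein, which rose from 11.4 ± 0.663 to 19.1 ± 1.44 CPM, a change of 0.74 (SE 0.119, adjusted p = 0.00244). Without the second 0 µM library, and without either 10 µM library, 0 of the 14 were called. The list's median was −0.01. Of 9 tested genes of esterification and oxysterols, 1 was called lower at 10 µM. At 2 µM edgeR and DESeq2 called 0 genes of these 4 lists. Between 2 and 4 genes of each had an unadjusted p under 0.05, as did 3046 of the 14296 genes tested. Without the first 0 µM library, 1 gene of uptake and transport was called at 2 µM.

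**Figure D3:**
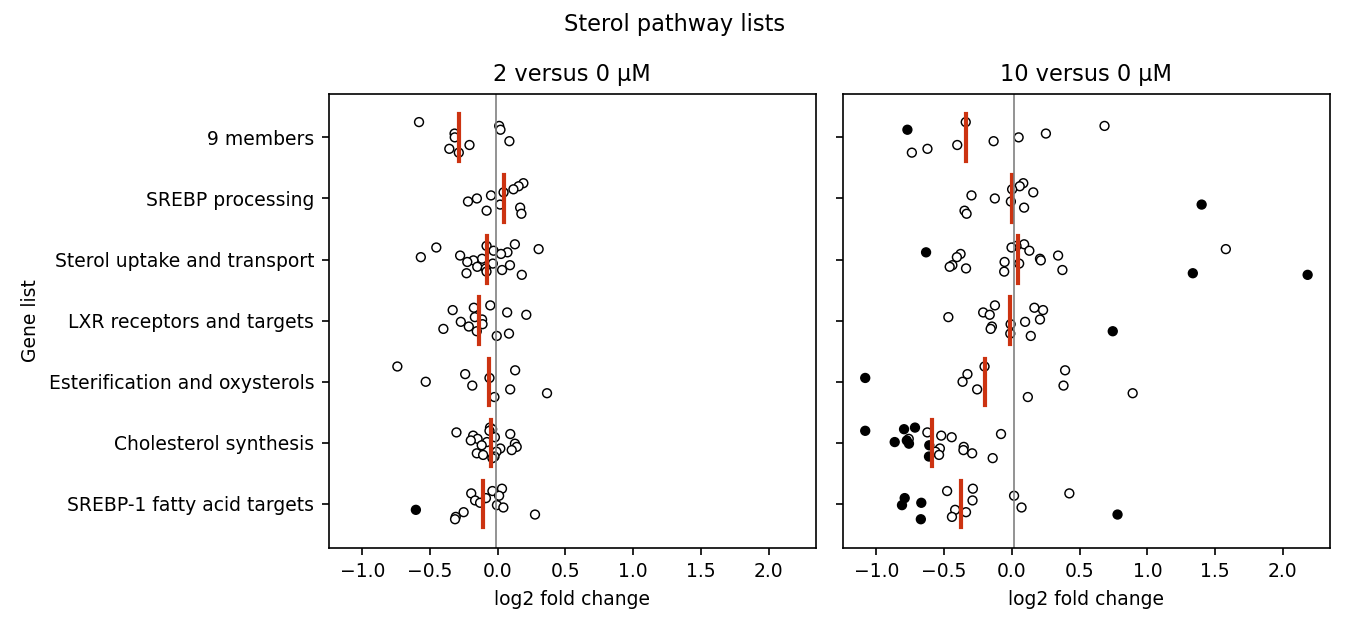
Log2 fold change of each tested gene in the members and the 6 pathway lists, at 2 µM (left) and 10 µM (right) against 0 µM. Points are genes, filled where called, red bars are medians and the grey line is the median of all genes tested. All 20 genes of cholesterol synthesis lie below 0 at 10 µM, with a median of −0.59, and Vldlr is the point at 2.18.

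The choice of scaling bears on these directions. Of all genes called, 23.9% were higher at 2 µM against 0 µM, 63.1% at 10 µM against 0 µM and 71.2% at 10 µM against 2 µM. With scaling to total counts alone these shares were 39.4%, 92.6% and 91.7%, and the median of all genes shifted to 0.07, 0.23 and 0.16 on the log2 scale. Leaving the mitochondrial features out of the TMM scaling changed no call of a member.

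For each member the genes with the most similar profile were found by Pearson's r of log2 CPM over the 8 libraries, among 10067 other genes of at least 5 CPM on average (10068 for Abcg1). These values describe libraries that share dose groups and depth. Insig1 was closest to Epb4.1l1 (r = 0.994), 1190002N15Rik (0.991) and Hist1h2bc (0.990). Srebf1 was closest to the glucose transporter gene Slc2a1 (0.994), the glycolytic gene Gpi1 (0.991) and P4ha2 (0.990), and Srebf2 to Ltbp3 (0.996), Bcl9l (0.992) and Prr12 (0.990). No member was among the closest 3 of another member. Abca1 was closest to the lipoprotein receptor gene Lrp1 (0.982), Sesn3 (0.978) and Fgd6 (0.974), and Npc1 to Rgcc (0.995), Cnnm4 (0.989) and Kif13b (0.988). Scap was closest to Slc11a2 (0.990), Map2k2 (0.984) and Ccdc167 (0.979), Insig2 to Cast (0.974), Vps45 (0.974) and Coro1b (0.959), and Stard4 to Fermt2 (0.987), Ywhaz (0.981) and Gfod1 (0.972). Abcg1, at its low counts, was closest to Usp40 (0.969), Mid2 (0.956) and Paxbp1 (0.954). Among the members themselves, r was highest between Srebf1 and both Insig1 and Stard4 (0.811 each) and lowest between Scap and Insig2 (−0.92).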

How the data were processed

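RNA-Seq was performed on total RNA of MEF cells after depletion of nuclear ribosomal RNA, with strand-specific libraries. Per the labels, the authors trimmed reads (Trim Galore, cutadapt), aligned them to mm10 with STAR 2.5.2a and counted them per gene with featureCounts. The authors deposited these counts as whole numbers, without normalization. Their gene annotation is not given in the sources used here. Counts of all 8 libraries were fitted in R 4.3.3 with edgeR 4.0.16 (TMM, filterByExpr, glmQLFit, glmQLFTest, Benjamini-Hochberg over 14296 genes), with the dose as the only factor. The standard error was the size of the log2 fold change divided by the square root of F. Exon lengths and positions came from GENCODE for GRCm38 (mm10), matched by symbol, and promoters and miR-33 from RefSeq for GRCm38.p6. Python 3.11.15 with pandas 2.3.3 was used otherwise.

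The members and gene lists were chosen with earlier results of these data known. Genes named beside the members are Npc2, Mbtps1, Mbtps2, Nr1h2, Nr1h3, Hmgcs1 and Mir33, up to 4 called genes with the smallest p per list and comparison, and the 3 genes most correlated with each member. Some genes this rule names are not reported here. The closest replicates, the second and the third 0 µM libraries, had a chi-square per degree of freedom of 3.62, above sampling noise, so each library counted as 1 replicate. The highest values within a dose were those of the first 0 µM library, at 18.4 with the second and 24.1 with the third. As alternatives, the counts were scaled by RLE, by TMM over nuclear genes or by totals alone, filtered at 10 counts per library or not at all, tested with DESeq2 1.42.0, called without a minimum fold, or fitted with only both compared groups, with a block for the replicate number, or with 1 library removed at a time.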

Additional observations from a re-analysis of the deposited data

How the results depend on the processing

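The changes of the 9 members in 3 comparisons were recomputed under 16 alternatives, which gave 428 values. Of these values, 410 kept their direction and their side of the thresholds. Calling without a minimum fold leaves each change as it was and is not among the 16. At 10 µM against 0 µM, 0 members were called with total counts alone, where Insig1 was −0.55, and 2 with no filter on low counts, with DESeq2, with only the 2 groups compared (Insig1 and Stard4 each time) and with no minimum fold (Insig1 and Srebf1). With no minimum fold, 1 was called at 2 µM (Abca1) and 2 between 10 and 2 µM (Insig1 and Npc1). Leaving out each library in turn gave 0 to 1, 1 to 3 and 1 to 2 called members at 2 against 0, 10 against 0 and 10 against 2 µM. Directions turned for Scap at 10 µM with total counts alone (0.0805), and otherwise for values near 0 with 1 library left out. These were Insig1 at 2 µM (−0.0049 without the third 0 µM library, −0.0011 without the first 2 µM library, and at most 0.0675), Npc1 at 10 µM (−0.0057 without the first 0 µM library, at most 0.0592) and Abcg1 at 2 µM (−0.088, −0.0085, −0.023 and −0.045 without the first or the second 0 µM or the second or the third 2 µM library, at most 0.209). Insig2 at 10 µM was −0.14 without the second 10 µM library and 0.52 without the first. Abcg1 gave no value with at least 10 counts in every library, nor at 2 µM with only the 2 groups compared, and DESeq2 gave it no adjusted p.

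Over all genes, 71, 442 and 788 were called. DESeq2 called 109 at 2 µM, total counts alone gave 914 at 10 µM, and no minimum fold gave 107, 747 and 1539. With 1 library left out the counts ran from 6 to 144, 235 to 633 and 444 to 884. Of the lists, cholesterol synthesis had 8 called genes at 10 µM and 2 with total counts alone, and 6 between 10 and 2 µM and 13 with no minimum fold. Fatty acid targets had 5 at 10 µM, 2 with total counts alone and 3 with only the 2 groups compared, 1 at 2 µM and 0 with total counts alone, and 3 between 10 and 2 µM, 7 with no minimum fold and 1 without the second 2 µM or second 10 µM library. Uptake and transport had 4 between 10 and 2 µM and 7 with no minimum fold. Esterification and oxysterols had 1, and 2 with total counts alone at both 10 µM comparisons and, between 10 and 2 µM, 2 without the first 2 µM or the second 10 µM library and 3 with no minimum fold. The causes were not tested. With up to 3 mismatches in place of 2, the members with a DR4 element were 4 in place of 0.

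Whether the replicate numbers pair the libraries was not settled. Between 0 and 2 µM the deviations of libraries with the same number correlated at 0.199, 0.0845 and 0.161. Those of libraries with different numbers correlated lower, at −0.154 to 0.0584. With 10 µM the values for the same number were −0.15 to −0.02. They cannot decide, because 2 libraries deviate from their mean by equal and opposite amounts. With the replicate number as a block, 0, 1 and 1 members and 54, 322 and 735 genes were called, and esterification and oxysterols had 2 called genes between 10 and 2 µM. A pseudocount of 5 left the ratios within 1 SD. The 10 µM group had 2 libraries, and with 1 of them left out the lone library is assumed to vary like the other groups.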
